A study of Mus musculus with 4 samples.

Results

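Retinoic acid, the active form of vitamin A, was followed through 9 genes in the mouse heart: those for the enzymes that make it and break it down, for the receptor that takes up its precursor, and for the nuclear receptors that bind it. The genes were the rows of the deposited count table with the symbols Cyp26b1, Aldh1a1, Aldh1a2, Rdh10, Dhrs3, Stra6, Rara, Rarb and Rarg, 9 of 38355 genes in the table. The set was chosen by the level of Cyp26b1, which had been higher in both transgenic libraries in an earlier look at these data. Its values by genotype are therefore given as a description, without a test.

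Total RNA of the left ventricular free wall came from 4 untreated mice with the same parents, with 1 library per mouse. Wild-type (WT) mice were compared with mice carrying VSFP2.3 (TG), a fluorescent voltage indicator, to see whether the transgene harms the heart. The first replicate of each genotype (WT 1 and TG 1) was a 35-week male, and the other (WT 2 and TG 2) a 19-week female. The sources used here do not give the promoter that drives the transgene, which the series title describes as targeted to cardiomyocytes.

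Cells take up retinol through STRA6, the membrane receptor for the plasma retinol-binding protein. RDH10 oxidises retinol to retinaldehyde, DHRS3 reduces retinaldehyde back to retinol, and the ALDH1A dehydrogenases turn retinaldehyde into retinoic acid, a step that is not reversed. Enzymes of the CYP26 family hydroxylate retinoic acid and so clear it, and the receptors RARα, RARβ and RARγ bind it and act on DNA together with retinoid X receptors. In the embryonic heart the pathway is known for its part in forming the inflow region and the atria, and the epicardium is a known source of retinoic acid there.

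Libraries held 14158440 to 16762713 counted reads, and 18334 to 19001 genes had at least 1 count. Counts of Ddx3y and Xist matched the labelled sex in 4 of 4 libraries. Transgene transcripts were not analysed here, so no gene checked the labelled genotype. All 6 cardiomyocyte markers listed (Myh6, Tnnt2, Actc1, Ryr2, Pln and Myl2) were measured, with a summed level of 54300 to 72200 CPM (counts scaled to 1000000 reads of a TMM-scaled library size). WT 2 stood apart in make-up, with 685444 counts of the non-coding gene Yam1 against 2094 to 7376 in the other libraries. WT 2 was also the library with transcripts of atrial muscle. Myl7, the atrial myosin light chain gene, had 1111 counts there against 0 to 5 in the others, Myl4 had 1182 against 10 to 19, and Sln (sarcolipin) had 299 against 0 to 1. The sum of the 6 listed atrial markers did not follow these genes (3710 and 1230 CPM in WT, 1570 and 4240 CPM in TG), since most of it was Nppa. The part of this difference in the members' values was not tested, and the folds that rest on WT 2 are also given without it. A fold by genotype with 1 library left out also holds sex and age, since the genotype it came from then has 1 mouse. The summed level of 8 macrophage markers was 1330 CPM in WT 1 and 1050 CPM in TG 2, against 240 CPM in WT 2 and 227 CPM in TG 1, which separates the libraries in a way that neither genotype nor sex and age does.

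Retinoic acid receptors recognise direct repeats of a short unit, and the promoters of the members were searched for them. RefSeq promoter windows of GRCm38.p6, from 250 bases before to 50 after a gene's start, were found for 8 of the 9 members, 18 windows in all. The units searched were AGGTCA, with the related unit AGTTCA, as well as GGGTCA, with the related unit GGTTCA, each on both strands and repeated in the same direction with a spacer of 1, 2 or 5 bases. Rarb, a gene long known as a target of its own ligand, held a repeat with a spacer of 5 at bases -53 to -37 from its start. No other member window held a repeat of any of the 3 spacings. Among all 32851 windows, 0.0974% held the spacer of 5, 0.268% that of 2 and 0.222% that of 1. The Rarb stretch (chr14:16575507-16575535, minus strand) also lies in an exon of longer annotated transcripts. It is shown with its repeated units in capitals, beside the stretch before the first annotated exon of Cyp26b1 (chr6:84593909-84594060, minus strand), the gene on which the genotype description turns. In the latter the capitals mark the letters of a GC box, GGGCGG on either strand, at bases -76 to -71 and -67 to -62 from the annotated start of the gene, and those of a TATA box, which are TATAAA.
Rarb: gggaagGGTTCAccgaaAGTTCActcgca
Cyp26b1: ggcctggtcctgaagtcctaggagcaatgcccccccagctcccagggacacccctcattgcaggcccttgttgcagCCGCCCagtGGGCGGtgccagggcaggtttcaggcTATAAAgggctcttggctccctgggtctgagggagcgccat
The Cyp26b1 window held 0 of the searched units, each alone or repeated, whereas 43.7% of all windows held at least 1. Its TATA box letters lie at bases -41 to -36 from the annotated start. For the boxes of Cyp26b1 that start is the GENCODE vM21 one, at 84593908. The RefSeq start that placed its window lies downstream, at 84593810, so the boxes lie farther from that start. The bases of Rarb are counted from its RefSeq start. TATAAA on either strand was found in 13.6% of all windows and the GC box letters in 35.7%. These matches describe the letters only.

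Levels per length of exon placed the retinaldehyde reductase gene Dhrs3 first and the uptake receptor gene Stra6 last. Exonic lengths were those of the GENCODE vM21 annotation, and the level is given as CPM per kilobase of exon, mean ± SD over the 4 libraries. Dhrs3 was at 40.3 ± 3.28 CPM per kilobase, 8.11 times the next gene, and its range did not meet that of any other member. Rarb (4.97 ± 0.480), Aldh1a1 (4.89 ± 1.04) and Rarg (4.48 ± 0.985) followed, with overlapping ranges, so their order is not resolved. Rara was at 3.21 ± 0.562, below Rarg in 4 of 4 libraries, although their ranges nearly touched. Rdh10 (2.55 ± 0.182) and Cyp26b1 (2.46 ± 1.57) had overlapping ranges, as did Cyp26b1 and Aldh1a2 (1.71 ± 0.703). Rarb shares 34.1% of its exonic bases with Top2b on the opposite strand. The sources used here do not give the strand setting of the counting, and the level of Rarb is therefore uncertain. The retinoid X receptor genes, the partners of these receptors, stood higher per kilobase, with Rxrg at 35.7 ± 4.45, Rxra at 16.3 ± 1.49 and Rxrb at 8.94 ± 1.27.

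**Figure D1:**
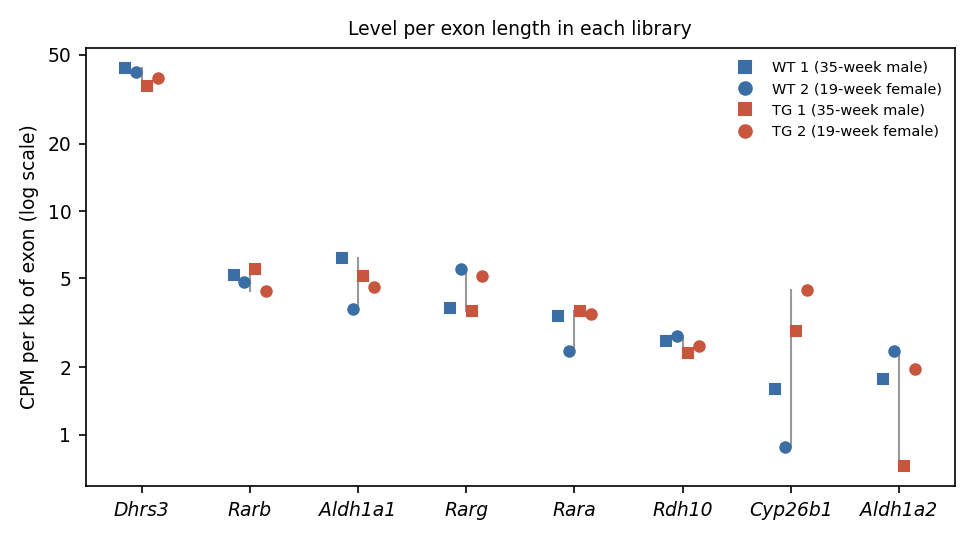
Level of 8 members in CPM per kilobase of exon (log scale) in each library, with genes ordered by their mean and squares for males, circles for females. Dhrs3 stands alone at the top, from 36.2 to 43.8. Cyp26b1, the gene the set was chosen by, has the widest spread on this scale, from 0.884 to 4.45.

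Cyp26b1 (ENSMUSG00000063415), on chromosome 6 (84571414 to 84593908, minus strand, GRCm38), encodes a hydroxylase that clears retinoic acid. It had 141 counts in WT 1, 74 in WT 2, 220 in TG 1 and 359 in TG 2. Its level was 8.56 CPM in WT 1, 4.73 CPM in WT 2, 15.6 CPM in TG 1 and 23.8 CPM in TG 2. Both TG libraries lay above both WT libraries, and the order of the 4 libraries was the same in counts and in CPM. The mean was 6.65 ± 2.71 CPM in WT and 19.7 ± 5.79 CPM in TG (SD, n = 2), a fitted log2 fold change of 1.57 for TG over WT. Within the male pair the log2 ratio of TG to WT was 0.86, and within the female pair it was 2.3. WT 2, the library with atrial transcripts, was the lowest. Without it the log2 fold change was 1.21, and without WT 1 it was 2.06. Either value sets both TG libraries against a WT mouse of a single sex and age. Of all 14189 tested genes 10.3% had both TG libraries above both WT libraries, and 35.3% had ratios of the same sign in both pairs.

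**Figure D2:**
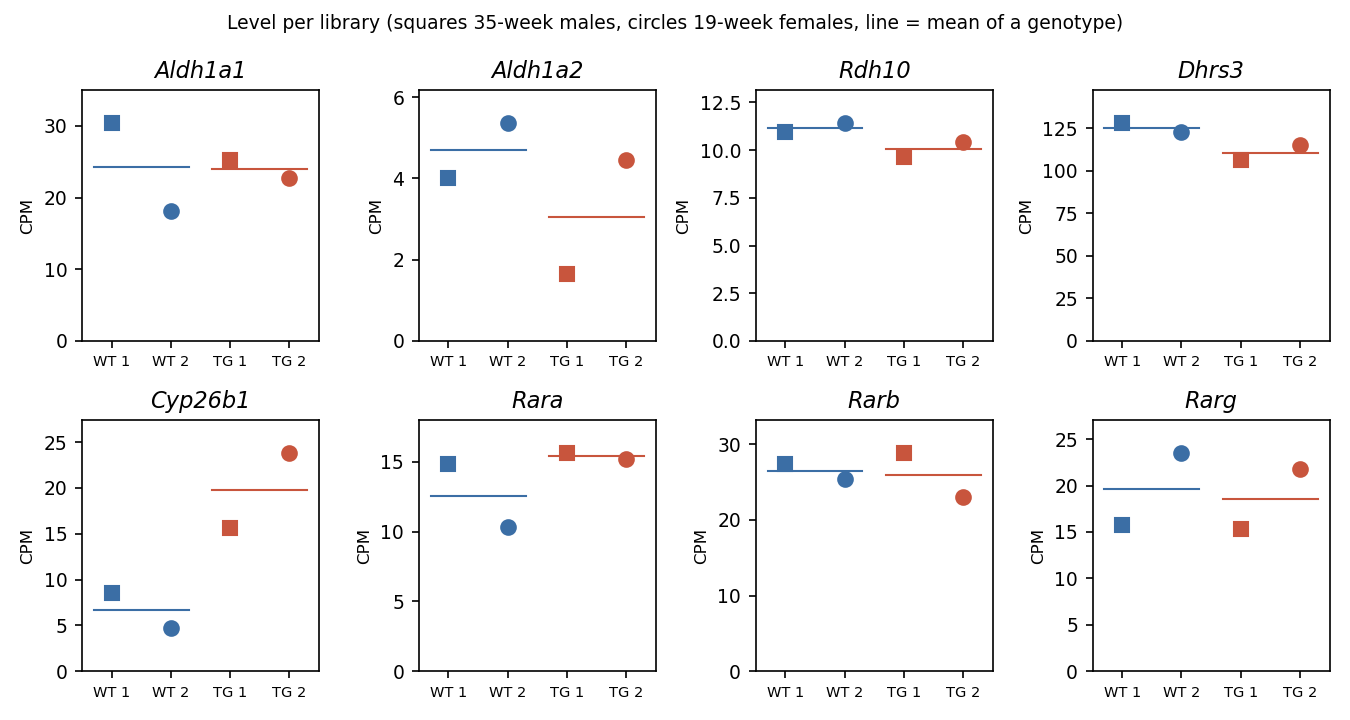
Level in CPM of 8 members in each library (y axes start at 0; lines are the means of a genotype, n = 2). For Cyp26b1 both TG points lie above both WT points, and for Rarg both female points (circles, 21.8 and 23.5) lie above both male points (squares, 15.3 and 15.7).

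Dhrs3 (ENSMUSG00000066026), whose enzyme returns retinaldehyde to retinol, lies on chromosome 4 (144892827 to 144928209, plus strand). It had 2111 counts in WT 1, 1918 in WT 2, 1493 in TG 1 and 1732 in TG 2, or 128 and 123 CPM against 106 and 115 CPM. Both TG libraries lay below both WT libraries, as for 10.7% of tested genes, and the log2 fold change was -0.18 ± 0.14 (SE of the fit), with a 95% interval of -0.54 to 0.18. Rdh10 (ENSMUSG00000025921), whose enzyme works in the opposite direction, lies on chromosome 1 (16105774 to 16133734, plus strand). It had 180 counts in WT 1, 179 in WT 2, 136 in TG 1 and 157 in TG 2, which is 10.9 and 11.4 CPM against 9.66 and 10.4 CPM. Here too both TG libraries lay below both WT libraries, with a log2 fold change of -0.16 ± 0.18 and an interval of -0.62 to 0.30. Both genes therefore had negative log2 ratios in each pair, from -0.27 to -0.09 for Dhrs3 and from -0.18 to -0.13 for Rdh10. Their 95% intervals for TG over WT include 0.

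Of the enzymes that make retinoic acid, Aldh1a1 (ENSMUSG00000053279) lies on chromosome 19 (20492715 to 20643465, plus strand). It had 501 counts in WT 1, 283 in WT 2, 356 in TG 1 and 342 in TG 2, or 30.4 and 18.1 CPM against 25.3 and 22.7 CPM. The TG values lay between the WT values, and the log2 fold change was -0.02 ± 0.28 with an interval of -0.74 to 0.71. Aldh1a2 (ENSMUSG00000013584), on chromosome 9 (71215789 to 71296243, plus strand), is the main retinoic acid-forming enzyme of the embryonic epicardium. It had 66 counts in WT 1, 84 in WT 2, 23 in TG 1 and 67 in TG 2, or 4.01 and 5.37 CPM against 1.63 and 4.44 CPM. TG 1 was lowest and the other 3 libraries lay close together, so the genotypes overlapped. The log2 fold change was -0.62 ± 0.53, with an interval of -2.0 to 0.76. Without TG 1 it was -0.07 and without TG 2 it was -1.51. Among 8 markers of epicardium and mesothelium, the summed level was 17.9 and 13.5 CPM in WT and 18.5 and 13.6 CPM in TG. Of these markers 3 passed the filter (Wt1, Krt18 and Tbx18), and Upk3b, Upk1b, Msln, Krt19 and Krt8 had at most 10 counts in any library. Krt18 was also lowest in TG 1, at 0.639 CPM against 2.3 to 5.53 CPM, while Wt1 was highest there, at 7.60 CPM against 4.19 to 4.78 CPM. Their part in the value of Aldh1a2 was not tested. In tissue RNA fewer cells of a type and less RNA per cell cannot be told apart.

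Stra6 (ENSMUSG00000032327), on chromosome 9 (58063788 to 58153996, plus strand), had 0 counts in both WT libraries and 1 count in each TG library. A count of 0 allows up to 3 counts, which is 0.179 to 0.212 CPM on unscaled library totals, and this limit covers counting error only. The level of the retinol uptake receptor was thus at or under the limit of detection in 4 of 4 libraries. It did not pass the filter on low counts, and no fold is given. The other 8 members passed the filter.

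Among the receptors, Rara (ENSMUSG00000037992) lies on chromosome 11 (98927818 to 98974942, plus strand). It had 244 counts in WT 1, 162 in WT 2, 220 in TG 1 and 229 in TG 2, or 14.8 and 10.4 CPM against 15.6 and 15.2 CPM. Both TG libraries lay above both WT libraries, but WT 1 was close to them and WT 2, the library with atrial transcripts, alone was low. The log2 fold change was 0.29 ± 0.23, with an interval of -0.30 to 0.88, and it was 0.06 without WT 2. Rarb (ENSMUSG00000017491), on chromosome 14 (16430839 to 16819156, minus strand), had 451 counts in WT 1, 398 in WT 2, 406 in TG 1 and 347 in TG 2. These were 27.4 and 25.4 CPM against 28.8 and 23.0 CPM, with the WT values inside the TG range and a log2 fold change of -0.03 ± 0.17. Rarg (ENSMUSG00000001288), on chromosome 15 (102234938 to 102257517, minus strand), had 259 counts in WT 1, 368 in WT 2, 215 in TG 1 and 329 in TG 2. These were 15.7 and 23.5 CPM against 15.3 and 21.8 CPM, overlapping between genotypes, with a log2 fold change of -0.08 ± 0.29. The 95% intervals were -0.47 to 0.42 for Rarb and -0.82 to 0.66 for Rarg. With 2 mice per genotype, differences within these ranges in either direction were therefore not excluded. Without WT 2 the fitted log2 difference by genotype (TG over WT) was 0.24 for Rarg, -0.08 for Rarb, -0.34 for Aldh1a1, -0.39 for Aldh1a2, -0.21 for Dhrs3 and -0.12 for Rdh10. These values set a male and a female TG library against the male WT 1 alone, so they also hold the difference of sex and age.

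After Benjamini-Hochberg adjustment over all tested genes, edgeR's quasi-likelihood test called 0 of the 7 tested members other than Cyp26b1 between TG and WT, against 0.0% (0 of 14189) of all tested genes. Limma-voom called 0 genes and DESeq2 called 3, none of them among these 7. An unadjusted p below 0.05 was found for 99 genes by edgeR, or 0.698%. Of the 7, Rara had a log2 fold change above 0 and the other 6 had values below 0. The median over all 8 tested members, Cyp26b1 included, was -0.05, against -0.01 over all tested genes. The genotypes did not overlap for 4 of the 8 (Cyp26b1, Rara, Rdh10 and Dhrs3), beside 21.0% of all tested genes, a count that includes the gene the set was chosen by.

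**Figure D3:**
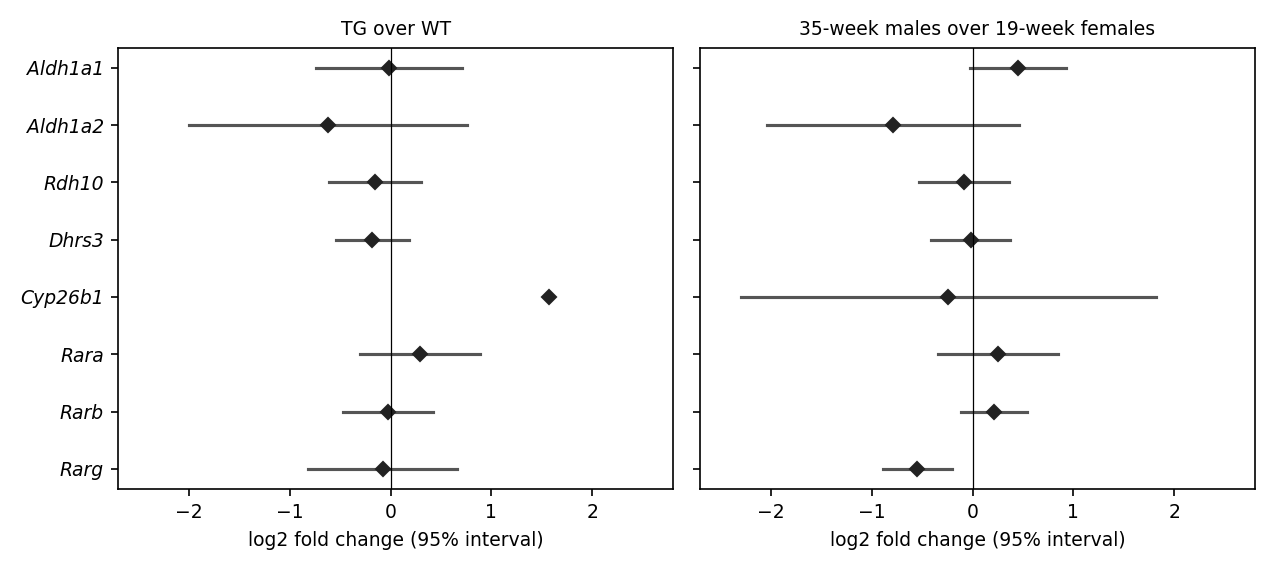
Fitted log2 fold changes of the 8 tested members with 95% intervals, for TG over WT (left) and for 35-week males over 19-week females (right). Cyp26b1 is drawn without an interval on the left, since it was chosen for that difference. On the right the interval of Rarg, -0.89 to -0.21, lies below 0.

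Sex and age change together in these mice. Rarg was at 23.5 and 21.8 CPM in the 19-week females against 15.7 and 15.3 CPM in the 35-week males. The sexes did not overlap, and within each sex the WT and TG libraries lay close together. The log2 fold change of males over females was -0.55 ± 0.13, and with each library left out in turn it was -0.60 to -0.50. The adjusted p by edgeR's quasi-likelihood test was 0.999, so Rarg was not called. This test called 4 of 14189 genes, or 0.0282%, and 0 of the 8 tested members. DESeq2 called 34 genes. By edgeR an unadjusted p below 0.05 was found for 513 genes, or 3.62%.

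Aldh1a1 was at 30.4 and 25.3 CPM in males against 18.1 and 22.7 CPM in females, and Rarb at 27.4 and 28.8 CPM against 25.4 and 23.0 CPM. Both male libraries were above both female libraries for these 2 genes, as for 15.5% of all tested genes. The log2 fold changes were 0.45 ± 0.18 and 0.21 ± 0.13, and without WT 2 that of Aldh1a1 was 0.29. Both male libraries were below both female libraries for Rarg and Aldh1a2, as for 15.9% of all tested genes. For Aldh1a2 the log2 fold change was -0.79 ± 0.48, and it was -0.30 without TG 1 and -1.58 without WT 1. No overlap in either direction was found for these 4 members, beside 31.5% of all tested genes. The remaining members were at -0.02 ± 0.15 (Dhrs3), -0.08 ± 0.17 (Rdh10), 0.25 ± 0.23 (Rara) and -0.24 ± 0.78 (Cyp26b1), each with overlapping groups. This fit had no genotype term, so the SE of Cyp26b1 holds the genotype difference it was chosen for. All 8 had an adjusted p of 0.999 by edgeR. The summed level of erythroid markers (6 listed genes, Hba-a2 at 0 in 4 of 4 libraries) was also higher in both males, but mainly in WT 1. These markers summed to 718 CPM in WT 1 and 235 CPM in TG 1, against 183 and 142 CPM in females. Their part in these values was not tested.

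The libraries also split into WT 1 and TG 2 against WT 2 and TG 1. A test asked whether the ratio of TG to WT was the same in the male and the female pair. In this test, chosen after earlier values of these data had been seen, 0 of the 8 tested members were called, against 2.72% of all tested genes (386 of 14189). The ratio was higher in the male pair for 0.352% of genes and lower for 2.37%, and an unadjusted p below 0.05 was found for 16.2%. Without WT 1 the test called 44 genes and without TG 2 it called 110. With 4 libraries it sets TG 1 and WT 2 against TG 2 and WT 1. The members' adjusted p-values by edgeR's quasi-likelihood test lay between 0.593 (Aldh1a1) and 0.978 (Rdh10). For Cyp26b1, with log2 TG to WT ratios of 0.86 in males and 2.3 in females, the fitted difference was -1.35 ± 1.3 with an interval of -4.53 to 1.84. The fit held no term for genotype or for sex and age, so those differences counted as error in it. For Cyp26b1 the error thus held the genotype difference it was chosen for, and the test cannot decide whether its ratio differed between the pairs. WT 2 and TG 1 lay both on 1 side of WT 1 and TG 2 for 47.5% of all tested genes (22.9% above and 24.6% below). A gene can be without overlap on 1 of the 3 splits at most, so with 4 members placed by genotype and 4 by sex and age, none could be placed here. Of 8 macrophage markers 7 lay lower in WT 2 and TG 1 by this measure and 4 were called, and of 5 tested lymphocyte markers 5 lay lower and 4 were called.

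The sum of squares of log2 CPM over the 4 libraries can be divided among these 3 splits. Genotype held 82.4% of it for Cyp26b1, a share that follows from how the gene was chosen. It held 79.3% for Dhrs3 and 75.5% for Rdh10, against a median of 13.7% over all tested genes. Sex and age held 97.8% for Rarg, 78.1% for Rarb and 69.8% for Aldh1a1, against a median of 22.9%. The crossed split held 0.349% (Rarg) to 29.9% (Aldh1a1), against a median of 41.0%. The amount of variation differed widely: the SD over the 4 libraries was 1.00 on the log2 scale for Cyp26b1 and 0.727 for Aldh1a2, but 0.103 for Rdh10 and 0.119 for Dhrs3, against a median of 0.205 over all tested genes. With 4 libraries these shares are a description, and they restate the positions of the members on the 3 splits.

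**Figure D4:**
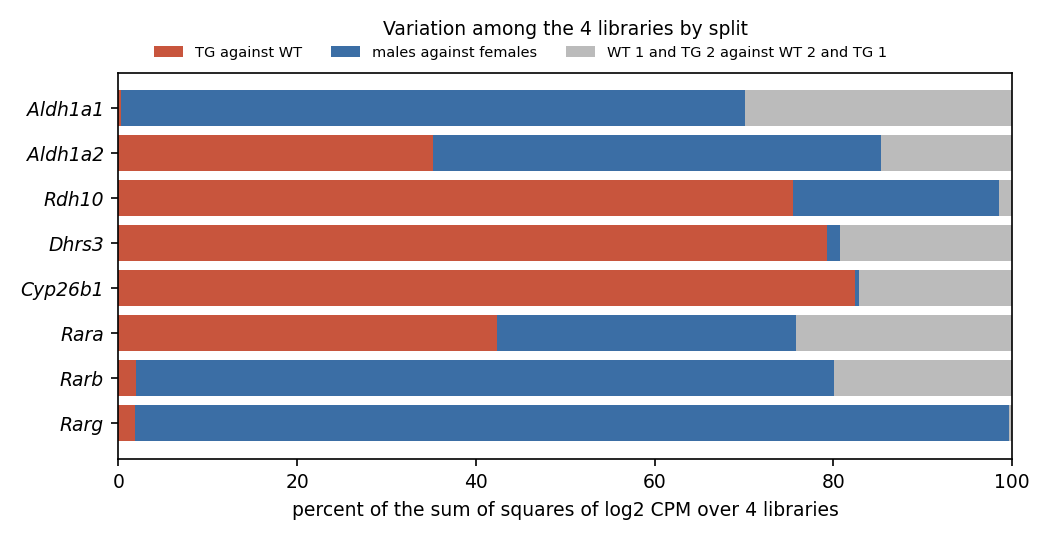
Percent of the sum of squares of log2 CPM over the 4 libraries that fell on each of 3 splits, for the 8 tested members. Cyp26b1, Dhrs3 and Rdh10 are mostly red (genotype) and Rarg is almost wholly blue (sex and age, 97.8%).

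The rest of the retinoid pathway was counted from a list of 48 genes, of which 27 passed the filter. By edgeR 0 of the 27 were called between TG and WT, between males and females, or for the difference between the pairs. Values were higher in TG for 17 and lower for 10, with a median log2 fold change of 0.07. Both TG libraries lay above both WT libraries for 6 of the 27 and below for 2, beside 10.3% and 10.7% of all tested genes.

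The genes for the other enzymes that clear retinoic acid, Cyp26a1 and Cyp26c1, had at most 3 counts in any library, so Cyp26b1 was the member of its family that was measurable in this tissue. Of the dehydrogenase genes 9 of 19 were tested. Adh1, an alcohol dehydrogenase that can oxidise retinol, measured 10.3 and 6.33 CPM in the WT libraries and 10.6 and 18.6 CPM in the TG libraries, a log2 fold change of 0.81 ± 0.38. Adh5, the most abundant of them, was at 73.6 and 74.5 CPM against 79.4 and 73.6 CPM (0.05 ± 0.14). Of the retinoid-binding protein genes 5 of 9 were tested. Rbp7, a cellular retinol-binding protein, measured 26.8 and 20.5 CPM in the WT libraries and 28.9 and 44.0 CPM in the TG libraries, a log2 fold change of 0.62 ± 0.26. Adh1 and Rbp7 were named for the smallest p in their role, and in both WT 1 and TG 1 were close, TG 2 was highest and WT 2 was lowest.

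Of the genes for retinoid storage, uptake and carotenoid cleavage 2 of 7 were tested. Scarb1, a lipoprotein receptor that also takes up carotenoids, measured 16.9 and 12.1 CPM in the WT libraries and 18.3 and 17.9 CPM in the TG libraries (0.32 ± 0.22), and Dgat1, an acyltransferase that can esterify retinol, was at 21.9 and 22.1 CPM against 20.8 and 20.9 CPM (-0.08 ± 0.14). The storage enzyme gene Lrat had 1 to 4 counts in each library. All 3 retinoid X receptor genes were tested, and their log2 fold changes for TG over WT were 0.02 ± 0.17 (Rxra), -0.15 ± 0.19 (Rxrb) and 0.05 ± 0.19 (Rxrg). Each of the 3 separated the males from the females without overlap, Rxra being higher in males (94.0 and 98.2 CPM against 83.0 and 81.7 CPM) and Rxrb lower (32.4 and 31.1 CPM against 42.4 and 36.2 CPM), as was Rxrg. Of all tested genes 31.5% did so in either direction, and none of the 3 was called by edgeR.

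Coregulator genes had higher values in TG in 8 of 8, with a median log2 fold change of 0.27. Ncoa1, a coactivator, measured 47.4 and 54.3 CPM in the WT libraries and 77.1 and 55.3 CPM in the TG libraries (0.38 ± 0.21), and the corepressor Ncor1 at 163 and 217 CPM against 221 and 197 CPM (0.14 ± 0.19). Both were highest in TG 1 and lowest in WT 1, and 6 of the 8 had WT 2 and TG 1 both above WT 1 and TG 2, a position that 22.9% of all tested genes held. Among 20 genes known to respond to retinoic acid, 11 were tested and 0 were called. Values were higher in TG for 7 and lower for 4. Tbx5, a transcription factor of the heart, measured 19.3 and 20.3 CPM in WT and 27.9 and 24.3 CPM in TG (0.40 ± 0.15). It was named for the smallest p among the 11, as Ncoa1 was among the coregulators. Tgm2, which encodes transglutaminase 2, was at 383 and 370 CPM against 345 and 378 CPM (-0.06 ± 0.14). Cdx1, Hoxb1 and Cebpe, also on this list, had 0 counts in 4 of 4 libraries.

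**Figure D5:**
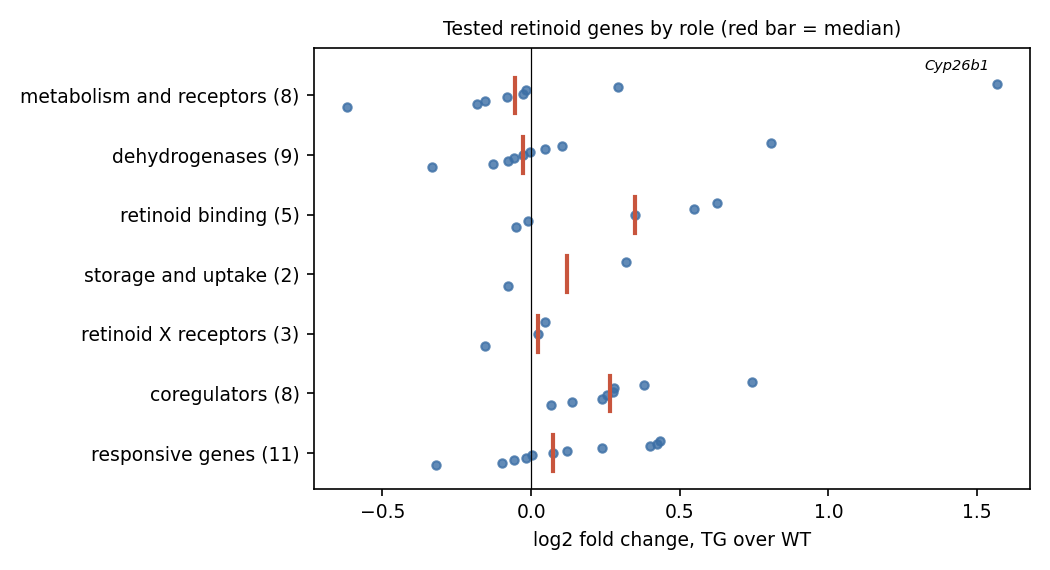
Fitted log2 fold changes of TG over WT for the tested members (top) and for the tested genes of the wider pathway by role, with 1 point per gene and a red bar at the median. Cyp26b1, the gene chosen for being higher in TG, lies farthest right at 1.57. The coregulator points all lie above 0 with a median of 0.27.

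The genes whose pattern over the 4 libraries was most like that of Cyp26b1 were found by the root mean square difference in log2 CPM, centred per gene, among 12729 named genes. They were Rims2 (0.349), Kcnj14 (0.365), Lhx6 (0.371), Trim5 (0.389) and Ptgfr (0.403), against a median difference of 0.894. These genes were picked for their small difference from a pattern that was itself chosen as higher in TG. Their distance from the median and their higher TG values follow from that search and show no shared regulation. Kcnj14, an inward-rectifier potassium channel gene, measured 2.19 and 1.92 CPM in the WT libraries and 5.47 and 5.11 CPM in the TG libraries. Ptgfr, the prostaglandin F receptor gene, measured 4.92 and 4.03 CPM in the WT libraries and 6.75 and 10.1 CPM in the TG libraries. Rims2 was below 1 CPM throughout, so its pattern rests on few counts. Of the cell-type lists, smooth muscle and pericyte markers had summed levels of 1560 and 1070 CPM in WT and 1710 and 1620 CPM in TG, with both TG libraries above both WT libraries. Most of that sum was Rgs5, at 1114 and 528 CPM in WT and 1261 and 1165 CPM in TG, while 6 of the 8 markers had log2 fold changes below 0. The summed level of 8 endothelial markers was 1030 and 1310 CPM in WT and 1150 and 1090 CPM in TG, and that of 8 fibroblast markers was 1490 and 1340 CPM against 1560 and 1440 CPM. Their part in the level of Cyp26b1 was not tested.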

How the data were processed

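The authors deposited raw read counts per Ensembl gene. Per the labels' protocols, a TruSeq stranded kit for total RNA and a HiSeq2000 were used. The submitters' processing notes name the build mm10, the counter HTSeq 0.6.1, the aligner STAR 2.3.0, the package DESeq, FastQC 0.10.0 and CASAVA 1.8.2. No annotation release is named in them. A second table, of normalized values, was deposited and was not used here.

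Counts were tested in R 4.3.3 with edgeR 4.0.16 (quasi-likelihood, TMM, filterByExpr with a minimum count of 10, Benjamini-Hochberg over 14189 genes, threshold 0.05), without a block. DESeq2 1.42.0, limma-voom (limma 3.58.1), other size factors, no filter, a replicate block and leaving out each library were alternatives. The fits were tested on simulated data. Within-pair ratios use a prior count of 2. Separate mice gave the replicates, 4 animals in all. Each comparison was fitted alone, so the spread behind its p-values and intervals also holds the other labelled differences. For TG against WT that is the difference of sex and age between the 2 mice of a genotype. Positions are those of GENCODE vM21 (GRCm38, the same assembly as mm10). The members and lists were chosen with earlier results of these data known. The 9 members are named whatever their values. Of each other role, the gene of smallest p for TG against WT and the most abundant are named. Others (Rxrg, Lrat, Myl7, Myl4, Sln, Nppa, Cyp26a1, Cyp26c1, Cdx1, Hoxb1, Cebpe and single markers) were named after their values were seen.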

Additional observations from a re-analysis of the deposited data

How the results depend on the processing

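With 2 mice per genotype the number of animals limits these comparisons, and depth limits only Stra6, Cyp26a1 and Cyp26c1, which lay near the limit of detection. None of the 7 tested members other than Cyp26b1 was called between TG and WT by edgeR, DESeq2 or limma-voom, with other size factors, without the filter, with the block or with any 1 library left out. The count of all genes called between TG and WT (0) was 3 with DESeq2 and 0 to 8 with 1 library left out (8 without WT 1). For males against females the count (4) was 34 with DESeq2, 7 with no filter and 0 to 9 with 1 library left out. For the difference between the pairs the count (386) was 703 with DESeq2, 908 with no filter and 44 to 366 with 1 library left out. With the replicate number as a block, TG against WT again gave 0 genes, and the log2 fold change of Aldh1a1 turned from -0.02 to 0.0283. The labels do not say that a number marks anything beyond sex and age, and the deviations of same-numbered libraries correlated at -0.457 over 14189 genes. The crossed pairing, chosen after seeing the data, also gave 0 genes. Limma-voom turned Aldh1a1 to 0.0264 for TG over WT and Cyp26b1 to 0.117 for males over females. Several log2 values changed sign with 1 library left out, among them the difference between the pairs of Cyp26b1 (-1.35, turned without TG 2) and of Aldh1a2 (-0.51, turned without TG 1). For TG over WT these spanned -0.34 to 0.409 (Aldh1a1), -0.196 to 0.128 (Rarb) and -0.359 to 0.241 (Rarg). For males over females they spanned -0.983 to 1.35 (Cyp26b1), -0.162 to 0.108 (Dhrs3) and -0.000544 to 0.558 (Rara). For the difference between the pairs they spanned -2.73 to 0.692 (Aldh1a2), -3.54 to 0.484 (Cyp26b1), -0.395 to 0.0254 (Dhrs3), -1.07 to 0.116 (Rara), -0.0295 to 0.474 (Rarb), -0.594 to 0.653 (Rarg) and -0.289 to 0.2 (Rdh10). With 1 library left out, the groups no longer hold the other labelled differences equally, so such a value also holds part of them. The cause of these changes was not tested.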
